A study of Bos grunniens and Bos grunniens x Bos taurus with 2 samples.

Results

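*PDGFRA* and *PDGFRB* encode the PDGF receptors alpha and beta, and they were taken by symbol from the annotation of the deposited counts, as 2 of its 26961 genes. Single-cell libraries were made from testis tissue by droplet capture, 1 of a yak and 1 of a cattle-yak, the hybrid of cattle and yak, both animals having passed sexual maturity. Each library came from 1 animal, so differences between the libraries had no replicate check, no p-values were computed, and all intervals below are 95% intervals that cover counting error only. The yak library held 11991 cells with a median of 2533 unique molecular identifiers (UMIs) and the cattle-yak library 8930 cells with a median of 3155, of which 10324 and 7092 passed the quality limits. Although the labels name the material germ cells, 13.4% of the kept yak cells and 1.58% of the kept cattle-yak cells fell into germ-like clusters. A total of 24 cell barcodes occurred in both libraries.

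Both receptors belong to the class III receptor tyrosine kinases, which pair up and phosphorylate one another when a PDGF ligand binds. PDGFA, PDGFB and PDGFC signal through the alpha receptor, and PDGFB and PDGFD through the beta receptor. In the testis, the alpha receptor marks interstitial cells that give rise to adult Leydig cells (LCs), the androgen-producing cells, and the beta receptor is a classical marker of pericytes, the cells that wrap capillaries.

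Levels are given as counts per 1000000 UMIs (CPM), summed over a class of cells. Cells were clustered within each library without the PDGF receptor and ligand genes, and clusters were named from marker lists that held neither receptor. Stromal-like clusters were enriched for matrix genes, smooth muscle-like clusters for contractile genes and pericyte-like clusters for genes such as *RGS5*. No cluster of either library was enriched for 3 stromal and 3 contractile markers at once against all other cells, so none was called peritubular-like. When all deposited cells were clustered, 257 yak cells were called peritubular-like and 0 pericyte-like. Receptor levels of those 257 cells are not given here. One cluster of each library was led by *TNNI1*, a troponin gene, and *CYP11A1*, the enzyme of the first step of steroid synthesis, together with 8 enriched contractile markers in yak and 3 in cattle-yak. Its cells are called TNNI1/CYP11A1 cells, a name given after the clusters had been seen, and in yak *PDGFRA* itself was among the 10 leading genes of the cluster. It had 2 enriched stromal markers in yak and 0 in cattle-yak. By the marker counts alone it would have been called smooth muscle-like in both libraries. The smooth muscle-like class below leaves it out, and the *PDGFRA* values of that class depend on this choice. The LC gene *STAR* was at 1.99 CPM in TNNI1/CYP11A1 cells in yak (4 UMIs) and 1.62 CPM in cattle-yak (2 UMIs). Of the 8 LC markers listed, 3 were matched by symbol, so an LC-like name needed all 3. *CYP17A1*, *HSD3B1*, *INSL3*, *LHCGR* and *HSD17B3* were not matched and could not be read.

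*PDGFRA* was concentrated in TNNI1/CYP11A1 and stromal-like cells in both libraries. In yak it was at 1458 CPM (interval 1405 to 1511) in the 422 TNNI1/CYP11A1 cells and at 687 CPM (661 to 714) in the 890 stromal-like cells. In cattle-yak the values were 698 CPM (652 to 746) in 317 TNNI1/CYP11A1 cells and 380 CPM (366 to 394) in 2868 stromal-like cells. These classes lay in the same order in both libraries, with intervals that did not overlap. TNNI1/CYP11A1 cells, 4.09% of the kept yak cells, held 50.03% of the yak *PDGFRA* UMIs, and stromal-like cells held a further 44.0%. In cattle-yak the share of the TNNI1/CYP11A1 cells was 20.9% and that of the more numerous stromal-like cells 69.3%.

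Outside these classes *PDGFRA* was low. Among the named classes of yak the germ-like cells came next with 28.1 CPM (22.6 to 34.4). Macrophage-like cells followed at 13.9 CPM (6.95 to 24.9) and pericyte-like cells at 11.5 CPM (6.29 to 19.3), and the intervals of neighbours in this order overlapped. Of the 92 germ-like UMIs, 60 lay in a cluster of 617 cells with a median of 996 UMIs. That cluster held 70.5 CPM of *PDGFRA*, but also 753 CPM of *ACTA2* and 359 CPM of *PECAM1*. The other germ-like clusters held 31.8, 11.6 and 4.68 CPM of *PDGFRA*. In smooth muscle-like cells of yak 5 UMIs were counted in 663 cells, or 1.27 CPM (0.412 to 2.96). In cattle-yak, smooth muscle-like cells held 95 *PDGFRA* UMIs in 843 cells, or 21.5 CPM (17.4 to 26.2), and 2.35 CPM (1.07 to 4.46) when the cells with the top 10% of doublet scores were left out. T/NK-like cells, lymphocytes in which neither receptor is expected, gave the level to read such values against. They held 6.96 CPM (5.27 to 9.02) in yak and 50.8 CPM (43.6 to 58.8) in cattle-yak. The cattle-yak value rested largely on the pair of T/NK-like clusters with the most *PDGFRA*, picked after their values were seen, 1 of 52 cells with 380 CPM of *PDGFRA* and 689 CPM of the stromal gene *DCN*, and 1 of 126 cells with 73.8 CPM of *PDGFRA*. Without that pair it was 14.1 CPM (9.85 to 19.5). The cluster of 126 cells was led by cell cycle genes such as *CDC20* and *UBE2C*. A yak T/NK-like cluster of 127 cells with *UBE2C* among its leading genes held 21.8 CPM of *PDGFRA*. It was kept in the yak value, so the yak value and the trimmed cattle-yak value cover unlike sets of clusters.

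*PDGFRB* was spread over more classes and was highest in pericyte-like cells. Among the named classes it reached 1052 CPM (995 to 1111) in the 219 pericyte-like cells of yak and 1244 CPM (1147 to 1347) in the 110 of cattle-yak. Stromal-like cells followed among these classes at 320 CPM (302 to 338) in yak and 272 CPM (260 to 284) in cattle-yak, below the cluster with pericyte and endothelial genes described next. Smooth muscle-like cells were at 212 CPM (198 to 227) and 172 CPM (160 to 185), and TNNI1/CYP11A1 cells at 202 CPM (183 to 222) and 166 CPM (144 to 190). The intervals of these last classes overlapped in both libraries. T/NK-like cells held 24.9 CPM (21.6 to 28.6) in yak and 61.4 CPM (53.4 to 70.2) in cattle-yak. Without the pair of clusters named above, the cattle-yak value was 24.6 CPM (18.9 to 31.5). The yak value kept its T/NK-like cluster of 127 cells, which held 78.9 CPM of *PDGFRB*.

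One cluster of each library carried genes of pericytes and of endothelial cells (ECs) at once, and it was left without a cell type name. Its cells had a median of 10374 UMIs in yak and 9976.5 in cattle-yak, against 5226 and 4299.5 in pericyte-like cells. *PDGFRB* was at 569 CPM (540 to 599) in the 272 yak cells and at 530 CPM (502 to 559) in the 258 cattle-yak cells, between the pericyte-like and EC-like levels. *PECAM1*, an EC gene, was at 753 CPM in the yak cluster and 42.7 CPM in pericyte-like cells, and *RGS5*, a pericyte gene, at 1060 CPM and 1764 CPM. Whether these were doublets of a pericyte and an EC was not tested. EC-like cells themselves held 19.4 CPM (16.0 to 23.5) of *PDGFRB* in yak and 23.0 CPM (18.4 to 28.3) in cattle-yak. In cattle-yak this lay below the level of all T/NK-like cells and close to that without the pair of clusters.

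**Figure D1:**
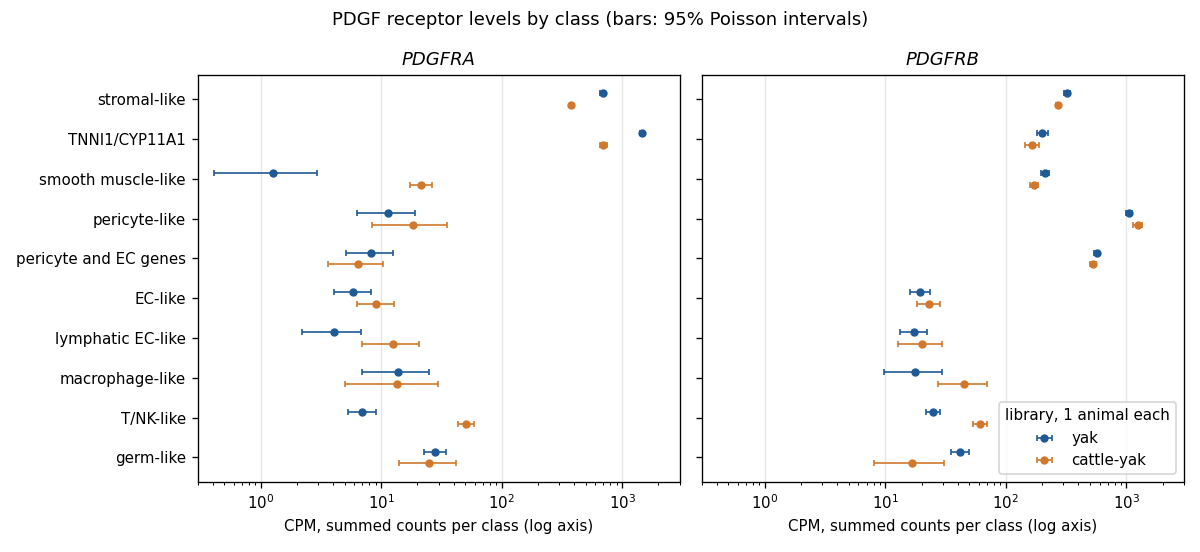
Levels of *PDGFRA* (left) and *PDGFRB* (right) by class, in CPM on a log axis, with points for the 2 libraries and bars for 95% Poisson intervals of the summed counts. *PDGFRA* is high in the stromal-like and TNNI1/CYP11A1 classes, whereas *PDGFRB* extends to smooth muscle-like and pericyte-like cells and peaks in the latter. The T/NK-like values of cattle-yak include the pair of T/NK-like clusters with the most *PDGFRA*.

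The balance of the receptors was compared between classes as the percentage of receptor UMIs that came from *PDGFRA*, since levels of different genes are not comparable in these counts. TNNI1/CYP11A1 cells stood at 87.8% (86.7 to 88.9) in yak and 80.8% (78.3 to 83.1) in cattle-yak. Stromal-like cells stood at 68.3% (66.8 to 69.7) and 58.3% (56.9 to 59.7). In smooth muscle-like cells the percentage was 0.596% (0.194 to 1.39) in yak and 11.1% (9.07 to 13.4) in cattle-yak, and in pericyte-like cells 1.08% (0.593 to 1.81) and 1.46% (0.671 to 2.76). The smooth muscle-like values depended on which cells were kept and how they were clustered. That of yak was 5.39% at a mitochondrial limit of 20%, 4.44% with k-means and 3.69% at a Leiden resolution of 2, and that of cattle-yak was 1.40% without the top 10% of doublet scores. The order from TNNI1/CYP11A1 to stromal-like cells and on to the mural classes was the same in both libraries. In the stromal-like and TNNI1/CYP11A1 cells the percentage was lower in the cattle-yak library, with intervals that did not overlap, although those of the stromal-like cells met when 1 cattle-yak cluster was left out, as described next. It contains no library size and so does not depend on the CPM scale.

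The cattle-yak stromal-like cells came from 4 clusters and those of yak from 1, so the class was also described by cluster. In yak the cluster was led by genes such as *EFEMP1*, *LHX9* and *RBP4*. In cattle-yak, clusters led by *SMOC2* and *COL28A1* (933 cells), by *CHGA* and *SVEP1* (341 cells) and by *EPHA3* and *LAMA2* (535 cells) held *PDGFRA* at 470, 439 and 440 CPM. The fourth, with 1059 cells, was led by *EPHA3*, *ICAM5* and *NRK* and held 242 CPM of *PDGFRA* and 322 CPM of *PDGFRB*. It reached the 3 markers needed for its name only when the other stromal-like cells were left out of the comparison. It was the single stromal-like cluster in which fewer UMIs came from *PDGFRA* than from *PDGFRB*. Without it, *PDGFRA* made up 65.2% (63.6 to 66.8) of the receptor UMIs of cattle-yak stromal-like cells, and the interval reached that of yak. Among the unnamed clusters, a yak cluster of 458 cells with a median of 993.5 UMIs held 130 CPM of *PDGFRA* and 194 CPM of *PDGFRB*, and reached 4 stromal, 7 contractile and 4 EC markers in that second comparison. An unnamed cattle-yak cluster of 132 cells held 102 and 93.3 CPM. A cattle-yak cluster of 14 cells with *STAR* among its leading genes held 6 *PDGFRA* UMIs, or 49.0 CPM (18.0 to 107).

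**Figure D2:**
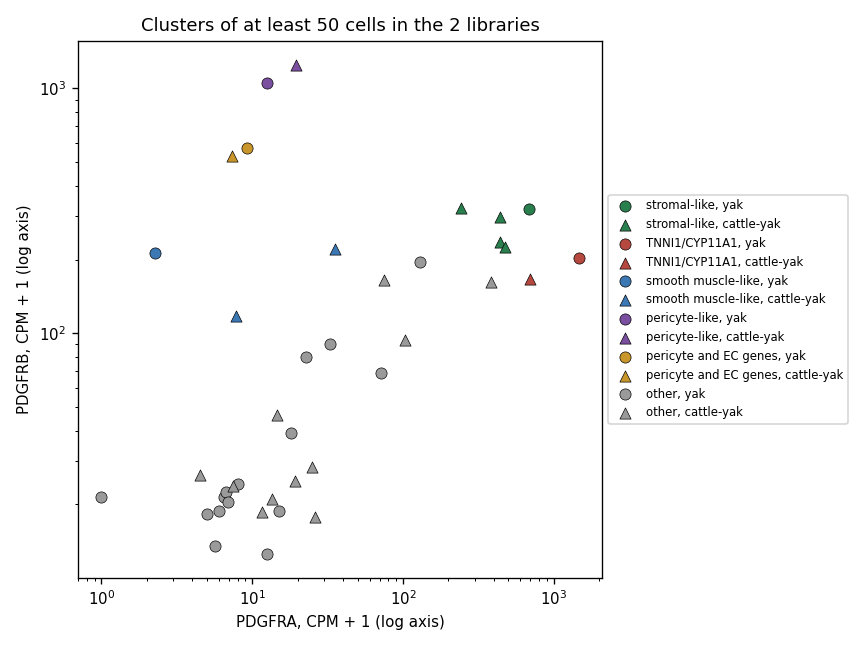
*PDGFRB* against *PDGFRA* for each cluster of at least 50 cells, in CPM + 1 on log axes, with circles for yak, triangles for cattle-yak and colours for the classes. Stromal-like and TNNI1/CYP11A1 clusters lie to the right and pericyte-like clusters at the top left; the grey triangle close to the stromal-like clusters is the T/NK-like cluster of 52 cells.

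Many single cells carried several receptor molecules. Of the 422 yak TNNI1/CYP11A1 cells, 403 had a *PDGFRA* UMI and 347 had 3 or more, with up to 38 in a cell. In cattle-yak 259 of the 317 cells had one and 129 had 3 or more. Of the yak pericyte-like cells 213 of 219 had a *PDGFRB* UMI, and of those of cattle-yak 105 of 110. In smooth muscle-like cells of yak no cell held more than 1 *PDGFRA* UMI. In those of cattle-yak 13 cells held 3 or more, and the UMIs lay mostly in the cluster of 449 cells that also held 241 CPM of *DCN*, against 51.2 CPM in the other smooth muscle-like cluster, of 394 cells. The 30 cattle-yak smooth muscle-like cells with both receptors had a median of 7935.5 UMIs and held 585 CPM of *DCN*, whereas the 407 cells with *PDGFRB* alone had a median of 5255 UMIs and held 154 CPM.

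Co-detection was compared after thinning every cell to 1000 UMIs, because deeper cells show more genes. Shares after thinning are the exact expected shares, and cells with fewer UMIs were left out. Of 859 yak stromal-like cells (31 left out), 11.5% (9.42 to 13.8) were expected to show both receptors, 32.4% *PDGFRA* alone, 15.8% *PDGFRB* alone and 40.3% neither. Of 2765 cattle-yak stromal-like cells (103 left out), 6.60% (5.71 to 7.59) showed both, 21.9% *PDGFRA* alone and 15.9% *PDGFRB* alone. In TNNI1/CYP11A1 cells both receptors were found in 12.1% (9.12 to 15.6) of 419 yak cells (3 left out) and in 7.62% (4.93 to 11.1) of 312 cattle-yak cells (5 left out). Without thinning, the shares with both were 52.4% and 24.6% in stromal-like cells and 50.2% and 36.9% in TNNI1/CYP11A1 cells, at median depths of 3975.5 and 2510 UMIs and of 4560 and 3619 UMIs.

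In these classes the receptors were detected together about as often as the product of their single shares. In stromal-like cells the product was 12.0% in yak and 6.43% in cattle-yak, and in TNNI1/CYP11A1 cells 12.3% and 6.70%. Each lay within the approximate interval of the share with both. Put differently, *PDGFRB* was seen in 26.1% of the yak stromal-like cells with *PDGFRA* and in 28.1% of those without, and in 23.2% and 22.3% in cattle-yak. The same held for each of the 4 cattle-yak stromal-like clusters, where shares with both lay between 4.99% and 8.91% and products between 4.91% and 8.25%. At this depth no split of the stromal-like cells into *PDGFRA* cells and *PDGFRB* cells was detectable.

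Pericyte-like cells, and smooth muscle-like cells with the TNNI1/CYP11A1 cells set apart, showed *PDGFRB* mostly without *PDGFRA*. After thinning, 63.4% (56.6 to 69.9) of 215 yak and 69.0% (59.4 to 77.6) of 107 cattle-yak pericyte-like cells had *PDGFRB* alone, and 0.679% and 0.850% had both (4 and 3 cells left out). In smooth muscle-like cells *PDGFRB* alone was found in 18.5% (15.6 to 21.7) of 651 yak and 15.0% (12.6 to 17.6) of 838 cattle-yak cells (12 and 5 left out), and both in 0.0212% and 0.216%. T/NK-like cells, at median depths of 1937 and 2392 UMIs, showed *PDGFRA* in 0.623% and 2.81% of thinned cells and *PDGFRB* in 2.42% and 3.66% (203 and 44 left out), and without the pair of cattle-yak clusters 1.00% and 2.33%. Unthinned, the T/NK-like shares were 1.28% and 6.78% for *PDGFRA* and 4.59% and 9.49% for *PDGFRB*. *PDGFRA* in the pericyte-like cells, at 1.24% in yak and 1.15% in cattle-yak after thinning, was near this background.

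**Figure D3:**
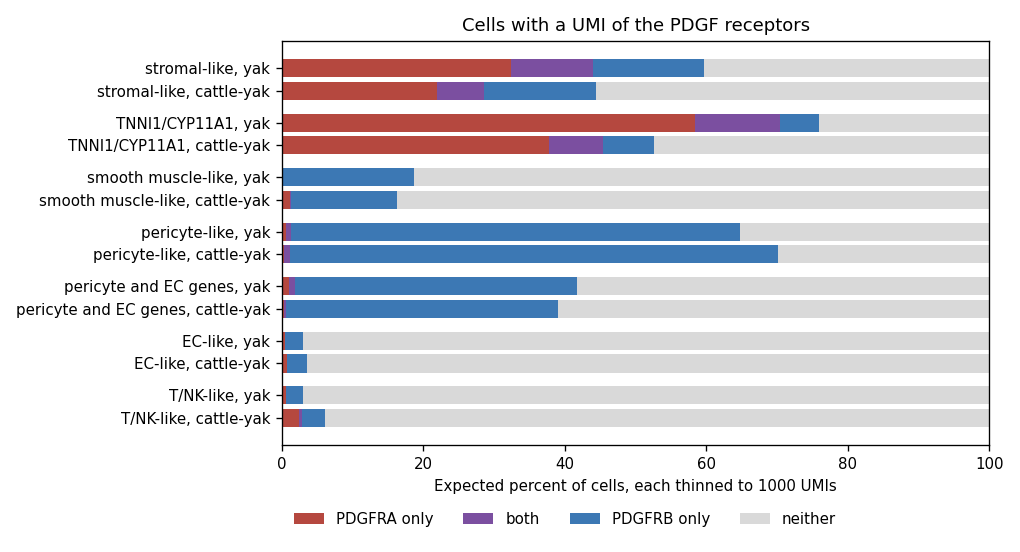
Expected percentage of cells with a UMI of *PDGFRA* only, of both receptors, of *PDGFRB* only or of neither, after thinning each cell to 1000 UMIs, by class and library. The cells with both receptors lie in the stromal-like and TNNI1/CYP11A1 classes, at 11.5% and 12.1% in yak and 6.60% and 7.62% in cattle-yak, and in the pericyte-like and smooth muscle-like classes nearly all cells with a receptor UMI have *PDGFRB* alone, beside 35.3% and 29.8% of pericyte-like and 81.4% and 83.7% of smooth muscle-like cells with neither.

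Within stromal-like cells the marker genes differed by receptor state. In yak, the 236 cells with *PDGFRA* alone held *CYP11A1* at 132 CPM (110 to 158) and the 112 cells with *PDGFRB* alone at 31.6 CPM (16.3 to 55.2). *ACTA2*, a contractile actin, was at 476 CPM (432 to 523) and 171 CPM (132 to 218) in these cells, and the pericyte gene *RGS5* at 12.1 CPM (6.05 to 21.7) and 55.3 CPM (34.2 to 84.6). The summed contractile list, 11 genes, was at 4389 CPM and 2532 CPM, and the summed pericyte list, 7 genes, at 45.2 CPM and 171 CPM. The summed stromal list, 11 genes, was at 6158 CPM (5998 to 6322) and 7714 CPM (7437 to 7999). *DCN* was at 1909 CPM (1821 to 2002) and 2400 CPM (2247 to 2561). The median depths were 3632 and 3039.5 UMIs. The 76 yak cells with neither receptor held the pericyte list at 44.7 CPM and the stromal list at 6134 CPM, near the cells with *PDGFRA* alone. Their *ACTA2*, at 149 CPM, was near that of the cells with *PDGFRB* alone. The 466 cells with both held 122, 7673 and 352 CPM. These states had median depths of 2703.5 and 4417.5 UMIs. In cattle-yak, *ACTA2* was at 166 CPM (150 to 184) in the 795 cells with *PDGFRA* alone and at 92.4 CPM (77.4 to 109) in the 571 with *PDGFRB* alone, while the intervals of *RGS5* and of *CYP11A1* overlapped between the states. The contractile list was at 1607 and 1478 CPM there, and the pericyte list at 35.4 CPM (27.9 to 44.2) and 44.1 CPM (34.0 to 56.3), with intervals that overlapped. The stromal list lay in the opposite order to yak, at 6586 CPM (6479 to 6695) with *PDGFRA* alone and 5996 CPM (5871 to 6123) with *PDGFRB* alone. *DCN* was at 1617 and 1621 CPM in these cattle-yak states. The 797 cattle-yak cells with neither held the stromal list at 5360 CPM, the pericyte list at 26.6 CPM and *ACTA2* at 86.0 CPM. The 705 with both held 7328, 57.8 and 116 CPM.

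*PDGFRA* and *ACTA2* were found in the same TNNI1/CYP11A1 cells. After thinning, 64.9% (60.1 to 69.4) of the yak and 36.6% (31.2 to 42.2) of the cattle-yak cells showed both, and the products of the single shares were 64.3% and 35.4%. In stromal-like cells both were found in 10.7% (8.74 to 12.99) and 3.22% (2.59 to 3.94), against products of 8.65% and 2.60%. *ACTA2* itself was at 3084 CPM in TNNI1/CYP11A1 cells, 5040 CPM in smooth muscle-like and 353 CPM in stromal-like cells of yak, and at 2088, 6445 and 119 CPM in cattle-yak. The smooth muscle-like cells of yak held more *ACTA2* and 1.27 CPM of *PDGFRA*, below the T/NK-like level of 6.96 CPM, but 11.3 CPM (7.38 to 16.6) at a mitochondrial limit of 20%, 9.53 CPM (6.78 to 13.03) with k-means and 8.27 CPM (5.66 to 11.7) at a Leiden resolution of 2.

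The cattle-yak library held less *PDGFRA* than the yak library in both classes that carry it. The log2 ratio of cattle-yak to yak was -1.06 (-1.17 to -0.95) in TNNI1/CYP11A1 cells and -0.86 (-0.93 to -0.78) in stromal-like cells. Of the 3474 genes with at least 100 summed counts in TNNI1/CYP11A1 cells, 6.36% had a log2 ratio of 1 or more either way, and *PDGFRA* was among them. Of these genes 4.09% had a lower ratio than *PDGFRA*. In stromal-like cells 8.09% of 6881 genes were past that limit and *PDGFRA* was not, with 9.56% of the genes below it. The tested genes as a whole were shifted, with medians of -0.28 in TNNI1/CYP11A1 and -0.25 in stromal-like cells, so that *PDGFRA* lay 0.78 and 0.60 below the median gene.

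The size of the *PDGFRA* difference depended on how cells and totals were set. Mitochondrial genes took up 13.1% of the yak and 22.2% of the cattle-yak UMIs, and 1 further feature, *ENSBGRG00000010006*, 5.99% and 10.8%. When CPM were taken without mitochondrial genes and the pair of other features with the most UMIs, the ratios were -0.86 in TNNI1/CYP11A1 cells, no longer past 1, and -0.54 in stromal-like cells, but the median gene moved to -0.08 and 0.05 and the distance to it stayed at -0.78 and -0.59. The ratio in TNNI1/CYP11A1 cells was also above -1 with a mitochondrial limit of 20% (-0.79) and with k-means clusters (-0.96).

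Other genes of these classes also differed between the libraries. In TNNI1/CYP11A1 cells the log2 ratio was -1.14 for *MYH11*, -0.81 for *TAGLN* and -0.68 for *CYP11A1*, but 0.53 for *DCN* and 0.66 for *COL1A2*, and the part of these shifts in the *PDGFRA* ratio was not tested. The yak stromal-like cells also held more *CYP11A1*, at 86.7 CPM (77.5 to 96.6) against 6.36 CPM (4.69 to 8.44), with a UMI in 166 of 890 cells against 32 of 2868, and more *ACTA2*. Leaving out stromal-like cells with a *CYP11A1* UMI gave a *PDGFRA* ratio of -0.69 (-0.77 to -0.60), and leaving out the cattle-yak cluster led by *EPHA3*, *ICAM5* and *NRK* gave -0.59. Pooling stromal-like with TNNI1/CYP11A1 cells gave -1.17. These alternatives were chosen after seeing the data. The part of the makeup of the class in the difference was not tested further, and the cross and the animal cannot be told apart.

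*PDGFRB* stayed closer to the median gene between the libraries in stromal-like and TNNI1/CYP11A1 cells. Its log2 ratio was -0.23 (-0.34 to -0.13) in stromal-like cells and -0.28 (-0.53 to -0.04) in TNNI1/CYP11A1 cells, which put it 0.02 above the median gene in the former and at the median in the latter. With a mitochondrial limit of 20% the sign turned in TNNI1/CYP11A1 cells, to 0.059. In stromal-like cells it turned, to 0.084, under the CPM without mitochondrial genes and the top pair of features. In smooth muscle-like cells the ratio was -0.30 (-0.44 to -0.16), where 3.73% of 5575 genes were past a log2 ratio of 1. In pericyte-like cells it was 0.24 (0.10 to 0.38), where 6.83% of 1889 genes were past a log2 ratio of 1, and *PDGFRB* was past it in neither class. *PDGFRB* lay 0.39 above the median gene in pericyte-like cells, where it was highest, and 0.19 below it in smooth muscle-like cells. The pericyte-like cluster had 3 enriched contractile markers in yak and 0 in cattle-yak. It held *ACTA2* at 2961 CPM in yak and 618 CPM in cattle-yak, *DCN* at 354 and 829 CPM and *RGS5* at 1764 and 1686 CPM. The part of this makeup in the *PDGFRB* ratio was not tested. At a Leiden resolution of 0.5 the pericyte-like distance was 1.07, but it compared unlike sets of cells. The yak class then held 498 cells, against 219, and the cattle-yak class 106, against 110. There 16.9% of the tested genes were past a log2 ratio of 1. *PDGFRA* in smooth muscle-like cells was past the limit at 4.08 (2.81 to 5.74), on 95 against 5 UMIs, but between 1.00, just under the limit, and 1.38 with a mitochondrial limit of 20%, finer clusters, k-means clusters or the cells with the highest doublet scores left out. Its cattle-yak level of 21.5 CPM lay between those of that library's T/NK-like cells with and without the pair of clusters. In pericyte-like cells *PDGFRA* had 9 and 14 UMIs, too few for the limit of 100 counts.

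**Figure D4:**
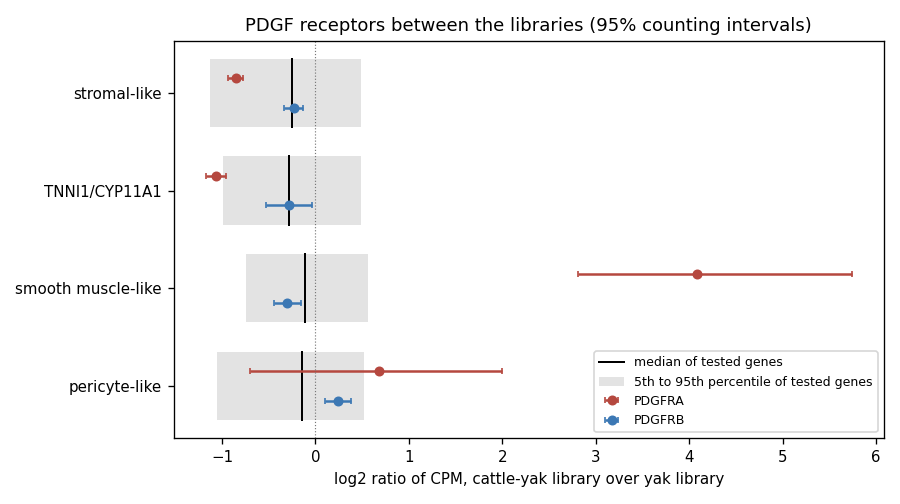
Log2 ratio of CPM in the cattle-yak library to CPM in the yak library for *PDGFRA* and *PDGFRB* in 4 classes, with 95% counting intervals, over grey bars from the 5th to the 95th percentile of the tested genes and a black line at their median. *PDGFRA* lies left of the median in the stromal-like and TNNI1/CYP11A1 classes, where *PDGFRB* lies on it. In pericyte-like cells *PDGFRB* lies right of the median. The wide *PDGFRA* interval in smooth muscle-like cells rests on 5 yak UMIs.

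Of the ligands, *PDGFA* was not matched by symbol, and *PDGFB* and *PDGFC* were highest outside the classes with the most *PDGFRA*. *PDGFB* was highest in EC-like cells, at 82.1 CPM (74.7 to 89.9) in yak and 54.8 CPM (47.7 to 62.8) in cattle-yak. It was at 2.93 CPM and 0.928 CPM in stromal-like cells. *PDGFC* was highest in smooth muscle-like cells, at 38.6 CPM (32.7 to 45.2) and 43.2 CPM (37.2 to 49.7), and at 9.07 and 5.04 CPM in stromal-like cells. *PDGFD* differed between the libraries in where it was highest. In EC-like cells it was at 13.2 CPM (10.4 to 16.6) in yak and 58.0 CPM (50.6 to 66.1) in cattle-yak, while the highest yak value was 16.4 CPM (11.3 to 23.1) in TNNI1/CYP11A1 cells, with an interval that overlapped that of the EC-like cells. *PLAT*, a protease that activates PDGFC, was highest in EC-like cells at 177 CPM in yak and 154 CPM in cattle-yak.

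Among receptor partners, *LRP1*, an endocytic receptor that associates with the beta receptor, peaked in the stromal-like class, with 678 CPM (652 to 705) in yak and 462 CPM (447 to 478) in cattle-yak. *PDGFRL*, a receptor-like gene without a kinase, likewise peaked there, at 8.53 CPM (5.84 to 12.0) and 13.5 CPM (11.02 to 16.4). Of the 14 adaptors and effectors in the annotation, 3 were highest in stromal-like, TNNI1/CYP11A1, smooth muscle-like or pericyte-like cells in yak and 2 in cattle-yak, and 7 in EC-like or lymphatic EC-like cells in each library. *PTPN11*, a phosphatase that binds activated PDGF receptors, was at 275 CPM (247 to 306) in the pericyte-like and 180 CPM (167 to 194) in the stromal-like cells of yak. Smooth muscle-like and TNNI1/CYP11A1 cells of yak held 268 and 260 CPM. In cattle-yak it was at 207 CPM in pericyte-like, 226 in smooth muscle-like, 169 in TNNI1/CYP11A1 and 129 in stromal-like cells. Of the 6 genes for receptor turnover, 0 were highest in these classes in either library. The share of all genes that were highest in these classes is not given here, so these counts have no background to be read against.

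The hedgehog response genes, which mark cells that receive the signal of Desert hedgehog, lay with *PDGFRA*. All 5 were highest in stromal-like or TNNI1/CYP11A1 cells in both libraries, a count that likewise has no share over all genes beside it. *PTCH1*, the hedgehog receptor and itself a target, was at 132 CPM in TNNI1/CYP11A1 and 85.9 CPM in stromal-like cells of yak and at 225 and 124 CPM in cattle-yak. Its log2 ratio between the libraries was thus opposite in sign to that of *PDGFRA*, at 0.76 (0.52 to 1.01) in TNNI1/CYP11A1 and 0.53 (0.35 to 0.72) in stromal-like cells. *HHIP*, a hedgehog-binding inhibitor and target, was at 29.7 CPM in cattle-yak and 13.1 CPM in yak stromal-like cells, a ratio of 1.18 (0.73 to 1.66). The pathway lists also held hedgehog response genes, LC genes and growth factor receptors of other classes. Across all these lists, the 2 receptors left out, 26 genes had enough counts in stromal-like cells. There 8.09% of all tested genes were past a log2 ratio of 1. Of the 26, the lists of proteases, receptor partners, adaptors and effectors, and receptor turnover held 1, 2, 9 and 4, with 0 past it. From the other lists, *HHIP* was past it upwards and 2 were past it downwards. These were *CYP11A1* at -3.77 (-4.24 to -3.33) and *TEK*, the angiopoietin receptor of ECs, at -1.54 (-2.07 to -1.02). The EC gene *PECAM1* was also lower in the cattle-yak stromal-like cells, at 8.22 against 48.5 CPM. This was not particular to that class. *PECAM1* was at 7.23 against 43.7 CPM in smooth muscle-like, 4.85 against 30.9 CPM in TNNI1/CYP11A1 and 30.8 against 42.7 CPM in pericyte-like cells. Of the 15 such genes in TNNI1/CYP11A1 cells, the 17 in smooth muscle-like and the 4 in pericyte-like cells, 0 were past it, where 6.36%, 3.73% and 6.83% of all tested genes were.

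Each receptor gene neighbours a related receptor gene in the yak RefSeq assembly, *PDGFRA* next to *KIT* and *KDR* and *PDGFRB* next to *CSF1R*, and these neighbours were expressed in other cells. *KIT* was highest in EC-like cells, at 19.8 CPM in yak and 23.2 CPM in cattle-yak, and at 0.533 and 1.59 CPM in stromal-like cells. *KDR*, the main VEGF receptor of ECs, was at 414 CPM and 551 CPM in EC-like cells and at 9.60 and 5.43 CPM in stromal-like cells. *CSF1R*, the receptor of macrophage growth factors, was at 838 CPM and 678 CPM in macrophage-like cells and at 9.04 and 6.16 CPM in pericyte-like cells. *CSF1R* was also one of the markers by which macrophage-like clusters were named. Of other growth factor receptors, *FGFR2* was highest in the same class as *PDGFRA*, at 286 CPM in TNNI1/CYP11A1 and 198 CPM in stromal-like cells of yak and 202 and 185 CPM in cattle-yak, and *FGFR1* was highest in smooth muscle-like cells at 155 and 168 CPM.

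**Figure D5:**
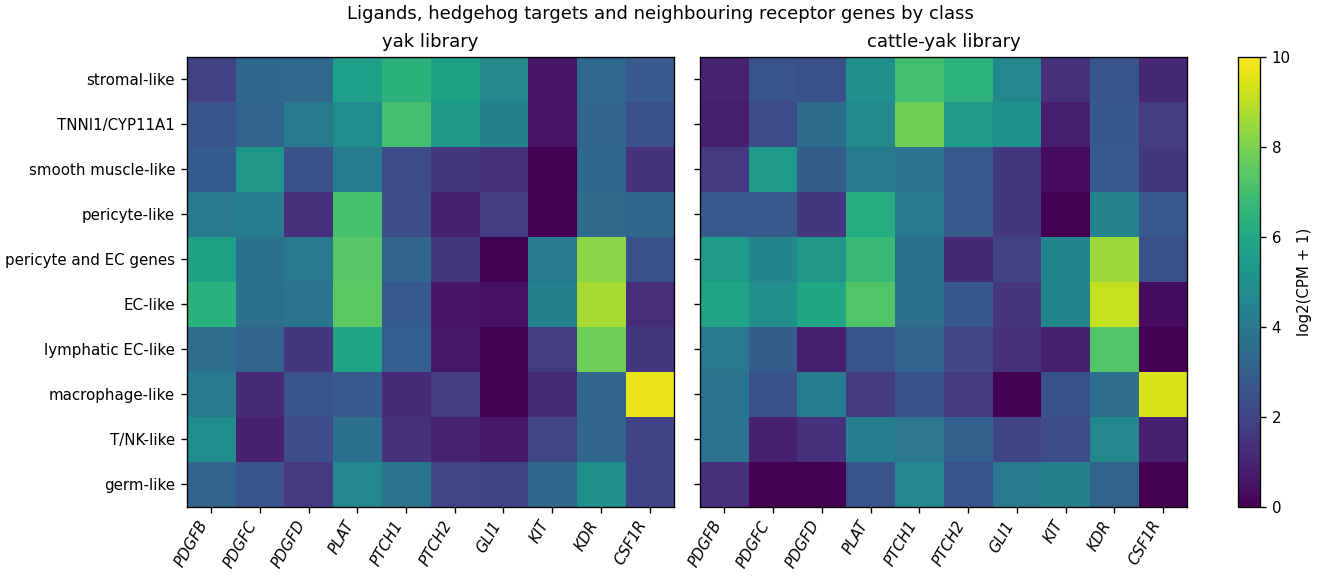
Level of 3 ligand genes, the protease gene *PLAT*, 3 hedgehog targets and 3 receptor genes that neighbour *PDGFRA* or *PDGFRB*, as log2(CPM + 1) by class in the yak (left) and cattle-yak (right) library; each column is to be read down its classes. *PDGFB* and *KDR* peak in EC-like cells, *PDGFC* in smooth muscle-like cells, *CSF1R* in macrophage-like cells and *PTCH1* in TNNI1/CYP11A1 cells.

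Across the 40 clusters of at least 50 cells in both libraries, the genes most alike to *PDGFRA* by Pearson correlation of log2(CPM + 1) were *FBLN1* (r = 0.93), *LIPG* (0.92), *APOD* (0.91), *CA3* (0.90) and *OMD* (0.90), out of 7868 genes. Those most alike to *PDGFRB* were *ENSBGRG00000016220* (0.92), *MGP* (0.92), *TBX2* (0.91), *BGN* (0.90) and *PCDH18* (0.90). Clusters of a library share its depth and its animal, so these correlations are descriptions. *FBLN1*, a matrix protein gene, was at 1296 CPM in stromal-like and 538 CPM in TNNI1/CYP11A1 cells of yak, and *CA3*, a carbonic anhydrase gene, at 546 and 3281 CPM. *FBLN1* was also one of the markers by which stromal-like clusters were named. *TBX2*, a transcription factor gene, was at 33.7 CPM in pericyte-like, 23.9 CPM in smooth muscle-like and 8.27 CPM in stromal-like cells of yak. The receptors themselves correlated with each other at r = 0.49, and *PDGFRA* and *PDGFRB* with *DCN* at 0.82 and 0.79. *PDGFRB* also correlated with *ACTA2* at 0.65, and *PDGFRA* at 0.22.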

How the data were processed

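The authors deposited UMI counts per gene and cell barcode, not normalized, as Cell Ranger wrote them. Version 5.0.0 stands in the file headers and 2.1.1 in the submitters' processing notes; the methods map reads to the yak genome. Both libraries were analysed apart. Cells entered the analysis if their genes and UMIs lay no more than 2 standard deviations from the mean of their library and mitochondrial UMIs below 30%. After normalization to 10000 UMIs, log transformation and choice of 2000 variable genes, 30 principal components and 15 neighbours fed Leiden clustering at resolution 1 (Python 3.11.15, scanpy 1.11.5, igraph 0.11.9, numpy 2.4.6, scipy 1.17.1, pandas 2.3.3, scikit-learn 1.9.0, seed 0). A marker was enriched at a log2 ratio of 1 to all other cells and a UMI in 10% of the cluster's cells, and 3 enriched markers gave a name. Clusters with 3 contractile markers that were led by *TNNI1* and *CYP11A1* took their own name ahead of this rule. An unnamed cluster was compared once more without cells already named for that list, a step added after the clusters had been seen.

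Counts were summed by class. Intervals are exact Poisson for CPM, exact Clopper-Pearson for shares of UMIs and exact conditional for ratios, at 95%. For thinned shares the Clopper-Pearson interval was taken at the expected number of cells, not at a whole count, and is approximate. UMIs of a library are not independent of its animal. Percentages of genes past a log2 ratio of 1 and medians over genes used log2(CPM + 1). Thinned shares are hypergeometric expectations, without a random draw. The text names the receptors, genes of the pathway lists, the 5 genes most alike to each receptor, *ACTA2* and *DCN*, with leading or marker genes where a class or state is described, some chosen after their values were seen. Members and lists were chosen with earlier results of these data known. Doublets were not removed in the main analysis. Scrublet called 0 of 10324 yak cells and 187 of 7092 cattle-yak cells (2.64%), and 0 calls do not show that doublets were absent. Of the cells with both receptors, 75 of 744 in yak and 174 of 916 in cattle-yak had scores in the top 10%. Without the top 10%, the thinned share of stromal-like cells with both was 12.3% in yak and 6.41% in cattle-yak. The ratios between libraries with their intervals and the thinning were tested on simulated data. The naming of clusters, the search for alike genes and the counts of list genes by class were not. Gene order was taken from the yak RefSeq gene table, of another assembly than the counts, for names of neighbouring genes only, and no genome sequence was used here.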

Additional observations from a re-analysis of the deposited data

Results flagged for a closer look

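The cells outside the quality limits were not used in the comparisons, yet they held *PDGFRB* at a level near that of the kept cells, and they were singled out as data with signal beyond the main measurement. In yak 1667 such cells held 4235 *PDGFRB* UMIs, 172 CPM (167 to 178) against 161 CPM (157 to 165) in kept cells. In cattle-yak 1838 cells held 3032 UMIs, 173 CPM (167 to 179) against 203 CPM (198 to 209). *PDGFRA* was lower there, at 9.77 CPM (8.57 to 11.1) against 161 CPM in yak and 19.5 CPM (17.5 to 21.7) against 158 CPM in cattle-yak. Of all deposited UMIs the limits left out 40.4% in yak and 40.0% in cattle-yak. Of the *PDGFRB* UMIs they left out 42.0% and 36.2%, near that share, but of the *PDGFRA* UMIs 3.94% and 7.61%. Most of these UMIs lay in cells with too many UMIs or genes, 792 in yak with a median of 24011.5 UMIs and 570 in cattle-yak with a median of 19716.5. These cells held *RGS5* at 289 CPM in yak and 262 CPM in cattle-yak, against 228 and 198 CPM in kept cells. *PECAM1* was at 382 and 364 CPM, against 382 and 191 CPM in kept cells. The part of doublets in the cells with too many UMIs or genes was not tested.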

How the results depend on the processing

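*PDGFRB* ratios near 0 turned sign under 2 of the settings below, and that of *PDGFRA* in pericyte-like cells, on 9 and 14 UMIs, went from 0.68 to -0.027 with the mean of per-cell CPM. The other receptor ratios kept their sign under the settings that gave a value, and ratios of other genes were not recomputed. Of the 63 library ratios 40, of the 48 receptor shares 36, of the 70 co-detection shares 53 and of the 132 levels 87 stayed within their counting intervals. No paired analysis was possible because each group is 1 library, and for the same reason leaving out a replicate was not possible.

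Thinning set the co-detection shares in stromal-like cells of yak and cattle-yak and in TNNI1/CYP11A1 cells of yak and cattle-yak: 3.95%, 2.04%, 4.47% and 2.56% at 500 UMIs, 27.9%, 17.5%, 26.6% and 18.3% at 2000 UMIs, and 52.4%, 24.6%, 50.2% and 36.9% unthinned. For the other settings log2 ratios are cattle-yak to yak. CPM without mitochondrial genes and the top pair of features gave *PDGFRA* ratios of -0.54 in stromal-like and -0.86 in TNNI1/CYP11A1 cells, *PDGFRB* ratios of 0.084 in stromal-like and 0.39 in pericyte-like cells, *PDGFRA* in TNNI1/CYP11A1 cells at 1976 CPM in yak and 1089.8 CPM in cattle-yak, and *PDGFRB* in pericyte-like cells at 1463 and 1924 CPM. A mitochondrial limit of 20% gave *PDGFRA* ratios of -0.73 in stromal-like and -0.79 in TNNI1/CYP11A1 cells, a *PDGFRB* ratio of 0.059 in the latter, *PDGFRA* at 864 CPM in cattle-yak TNNI1/CYP11A1 cells and *PDGFRB* at 542 CPM in yak pericyte-like cells. With k-means clusters the stromal-like ratios were -0.77 for *PDGFRA* and -0.39 for *PDGFRB*, the yak stromal-like *PDGFRA* percentage 64.7% and the yak pericyte-like *PDGFRB* level 735 CPM. Without the top 10% of Scrublet scores the stromal-like ratios were -0.97 and -0.35, *PDGFRA* in yak TNNI1/CYP11A1 cells 1564 CPM and *PDGFRB* in yak pericyte-like cells 1114 CPM. At a Leiden resolution of 0.5 the last was 725 CPM and its ratio 0.79, and the mean of per-cell CPM was 1169. The yak pericyte-like class held 750 cells at the 20% limit, 514 with k-means and 498 at that resolution. It held 219 in the main analysis, so these levels and the ratio of 0.79 cover another set of yak cells.

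Alternatives chosen after seeing the data moved the stromal-like results: pooling with TNNI1/CYP11A1 cells gave *PDGFRA* percentages of 77.4% in yak and 62.3% in cattle-yak and ratios of -1.17 and -0.12. Leaving out the cattle-yak cluster named in the second comparison gave 65.2%, -0.59 and -0.39, and leaving out cells with a *CYP11A1* UMI -0.69 and -0.38. The cause was not tested. No pericyte-like class was found in yak with all deposited cells, where 257 cells met the peritubular-like rule, nor in cattle-yak at the 20% limit or with k-means. A minimum of 20 summed counts put 12.6% of genes in stromal-like, 11.8% in TNNI1/CYP11A1, 7.75% in smooth muscle-like and 11.9% in pericyte-like cells past a log2 ratio of 1. Of the 5 genes most alike to *PDGFRA* 2 remained with yak clusters alone and 3 with cattle-yak clusters alone, and of those of *PDGFRB* 1 and 2.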
